A study of Mus musculus with 9 samples.

Results

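Expanded CAG repeats coding for polyglutamine cause a family of inherited brain diseases, and the 9 mouse genes described here are other members of that family or their close relatives: Atxn1, Atxn1l, Atxn2, Atxn2l, Atxn7, Atxn10, Tbp, Htt and Atn1. They were chosen by name, not by their values, as the rows of the count table whose Ensembl gene identifier carries one of these symbols, and all 9 of 9 were found among 37816 genes. RNA of the cerebellum was sequenced in 9 mice whose transgene, a yeast artificial chromosome, holds the human gene of ataxin-3 (ATXN3), the protein of spinocerebellar ataxia type 3 (SCA3, or Machado-Joseph disease). The 3 mice of the 15Q group carried a normal repeat of 15 CAG, and the 3 mice of the 84Q group an expanded repeat of 84. The 3 mice of the 84Q+IGF1 group carried the expanded repeat and received insulin-like growth factor 1 at 50 mg/kg by weekly injection into the peritoneum from 9 to 18 months of age. The labels call the 15Q and 84Q groups untreated, and the methods of the study state that the mice without IGF-1 received buffer. All mice had the same background strain, all were 18 months old, and all carried a human ATXN3 transgene, so no group lacked it. The transgene brings its own human regulatory sequence and is active in many tissues, and the human gene has no row in these mouse counts.

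In the polyglutamine diseases, a run of CAG codons in a coding exon lengthens beyond a threshold, the protein gains a long glutamine stretch, and neurons degenerate with protein aggregates in the nucleus or cytoplasm. ATXN1, ATXN2 and ATXN7 are the genes of 3 spinocerebellar ataxias in which the cerebellum and its Purkinje cells are prominently affected, TBP is the gene of a further ataxia, HTT that of Huntington disease, and ATN1 that of dentatorubral-pallidoluysian atrophy. Atxn1l and Atxn2l are the paralogs of ataxin-1 and ataxin-2 that lack a long glutamine run, and ATXN10 is the gene of an ataxia caused by an intronic repeat that is not translated into glutamine. The proteins act in different processes: ataxin-1 and its paralog bind the repressor capicua, ataxin-2 and its paralog bind RNA and are found in stress granules, and ataxin-7 is a subunit of the SAGA chromatin complex. TBP is the TATA-binding protein of the general transcription machinery, huntingtin is a scaffold in vesicle transport, atrophin-1 is a corepressor, and ataxin-10 is a cytoplasmic protein that is needed for neuron survival.

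The mouse genes do not carry the long tracts of human disease. The longest in-frame run of CAG and CAA codons, both of which code for glutamine, was read for each gene from its longest coding sequence in GENCODE vM21 on the GRCm38 assembly. The 6 polyglutamine disease genes are printed below because the tract is what defines them as a family, 5′ to 3′ on the coding strand, with 30 bases of flank on each side and the run in capitals.
Tbp: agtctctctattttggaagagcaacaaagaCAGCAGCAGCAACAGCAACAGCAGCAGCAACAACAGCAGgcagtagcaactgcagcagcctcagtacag
Htt: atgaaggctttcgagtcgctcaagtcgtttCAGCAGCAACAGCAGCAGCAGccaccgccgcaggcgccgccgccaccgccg
Atxn7: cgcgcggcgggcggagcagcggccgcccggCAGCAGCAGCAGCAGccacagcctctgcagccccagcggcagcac
Atxn1: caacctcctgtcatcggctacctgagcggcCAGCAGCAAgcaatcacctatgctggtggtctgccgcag
Atxn2: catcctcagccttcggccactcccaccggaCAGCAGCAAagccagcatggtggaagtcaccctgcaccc
Atn1: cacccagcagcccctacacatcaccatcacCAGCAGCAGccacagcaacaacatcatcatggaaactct

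The run of Tbp was the longest, with 13 codons, of which 9 were CAG and 4 CAA. It lay at chr17:15504391-15504429 on the plus strand, at codons 58 to 70 of 316. Htt had 7 codons, 6 CAG and 1 CAA, close to the start of the coding sequence at chr5:34761958-34761978 on the plus strand. Atxn7 had 5 CAG codons at chr14:14013156-14013170 on the plus strand, at codons 25 to 29 of 920. Atxn1 at chr13:45567080-45567088 and Atn1 at chr6:124746820-124746828, both on the minus strand, and Atxn2 at chr5:121810946-121810954 on the plus strand had runs of 3 codons. Atxn1l and Atxn2l had 2, and Atxn10 had 1. Each run lay within 1 coding exon. Among 21630 coding genes of the annotation, 0.24% had a run of 13 or more such codons, 0.68% of 7 or more, 1.16% of 5 or more and 8.955% of 3 or more. The Atxn2 run lay at codons 1129 to 1131 of 1286 and the Atxn1 run at codons 444 to 446 of 799, and neither position was matched to that of the human tract.

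The genes lie on 8 chromosomes. In GENCODE vM21, Atxn1 (ENSMUSG00000046876.16) spans chr13:45549755-45965008 and Atxn1l (ENSMUSG00000069895.4) chr8:109726451-109737739, both on the minus strand. Atxn2 (ENSMUSG00000042605.16) spans chr5:121711337-121816493 on the plus strand, on the same chromosome as Htt (ENSMUSG00000029104.15) at chr5:34761740-34912534, also on the plus strand. Atxn2l (ENSMUSG00000032637.15) lies at chr7:126491708-126503437 and Atn1 (ENSMUSG00000004263.15) at chr6:124742544-124756524, both on the minus strand. Atxn7 (ENSMUSG00000021738.5) lies at chr14:13961440-14107302, Atxn10 (ENSMUSG00000016541.10) at chr15:85336245-85463212 and Tbp (ENSMUSG00000014767.17) at chr17:15499888-15528379, all on the plus strand.

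Reads of a paralog pair could be told apart, and those of Atn1 less surely. Atxn1 shared 0 stretches of 31 bases with Atxn1l, and Atxn2 shared 0 with Atxn2l, over all their annotated transcripts. In contrast, 3874 of the 4600 exon bases of Atn1 (84.2%) lay in exons of Gm45234, a protein-coding gene annotated on the same strand. Gm45234 itself had between 1 and 19 counts per library. How the counting treated reads on exons of more than 1 gene is not stated, so the level of Atn1 is uncertain, and the part of this overlap in its counts was not tested. Tbp shared 19.0% of its exon bases with Pdcd2 on the opposite strand, Atxn1 shared 2.7% with Gmpr and Atxn2 shared 0.6% with Sh2b3, also on the opposite strand. The other 5 genes overlapped no annotated exon of another gene.

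The libraries held between 17482654 and 58269196 counts, with 26925001 to 58269196 in 15Q, 17482654 to 28843999 in 84Q and 23508574 to 29089855 in 84Q+IGF1. The tissue label fitted the markers: of 9 Purkinje cell and 8 granule cell markers, 0 were at or under a floor of 3 counts throughout, with summed levels of 7566 to 8472 and 5593 to 6587 CPM (counts scaled to library totals, which were adjusted by TMM) over the 9 libraries. The 12 choroid plexus markers had summed levels of 45.6 to 532 CPM in 15Q, of 29.9 to 1084 in 84Q and of 29.5 to 71.0 in 84Q+IGF1. The 5 tested of 8 intestine markers summed to 21.9 to 33.5 CPM in 15Q against 4.31 to 6.11 in the other libraries, and the 7 skeletal muscle markers to 14.3 to 21.9 against 3.21 to 4.97. Xist RNA was at 719 to 949 CPM in 2 of the 15Q libraries, 1 of the 84Q and 1 of the 84Q+IGF1 libraries and at 0.285 to 1.15 CPM in the others, so both sexes were present in every group. With Ttr, the main choroid plexus transcript, or Xist as a covariate, none of the 9 genes was called in any comparison. The 6 microglia markers summed to 142 to 169 CPM in 84Q, above all libraries of 15Q (118 to 134) and of 84Q+IGF1 (125 to 138). The 6 oligodendrocyte markers summed to 3005 to 3948 CPM in 84Q+IGF1, below all of 15Q (3988 to 4287), while 84Q (3934 to 4949) overlapped both. Summed levels of the 7 astrocyte and Bergmann glia markers (2084 to 2635 CPM) and the 5 blood markers (22.9 to 211 CPM) overlapped between groups. The part of microglia, oligodendrocyte, intestine and muscle RNA in the values of members and partner genes was not tested.

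All 9 genes were transcribed in the cerebellum, over a wide range. Levels in TPM (counts per length of the union of exons, scaled to a fixed total) allow different genes to be set side by side. Atxn2l was the highest at 331.7 ± 14.1 TPM (SD, n = 9 libraries), above 98.4% of the 19353 genes tested, and Atxn10 followed at 273.1 ± 17.1. A middle group comprised Atxn2 at 37.9 ± 1.61, Atxn1l at 35.3 ± 1.28, Htt at 34.9 ± 2.95 and Atxn7 at 34.3 ± 2.58 TPM. Atxn1 stood at 20.3 ± 1.70 and Tbp at 14.3 ± 1.04, beside a median of 14.4 TPM over the genes tested. Atn1 was the lowest at 4.79 ± 0.493 TPM. The ranges over the 9 libraries did not overlap between Atxn2l and Atxn10, Atxn10 and Atxn2, Atxn7 and Atxn1, Atxn1 and Tbp, or Tbp and Atn1. Within the middle group the neighbours were not separated: Atxn2 was above Atxn1l in 9 of 9 libraries by a mean factor of 1.07 but with overlapping ranges, and Atxn1l was above Htt, and Htt above Atxn7, in only 6 of 9.

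The order of the lower genes rested on the length chosen. Both lengths that follow were added after the data were seen. With the same counts divided by only the exon bases that no other gene shares, the mean of Atn1 was 30.4 TPM, which placed it 7th, and that of Tbp was 17.7, which placed it last. With the length of the transcript that has the longest coding sequence, Tbp stood at 103 TPM, Atxn2 at 133, Atxn7 at 92.7, Atxn1 at 72.5 and Htt at 64.5, and Tbp moved from 8th to 4th. Atxn2l and Atxn10 were the highest 2 under each of the 4 other lengths or scalings used. The isoforms these cerebella use were not measured, so the levels of genes with long untranslated regions are known only within these ranges.

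**Figure D1:**
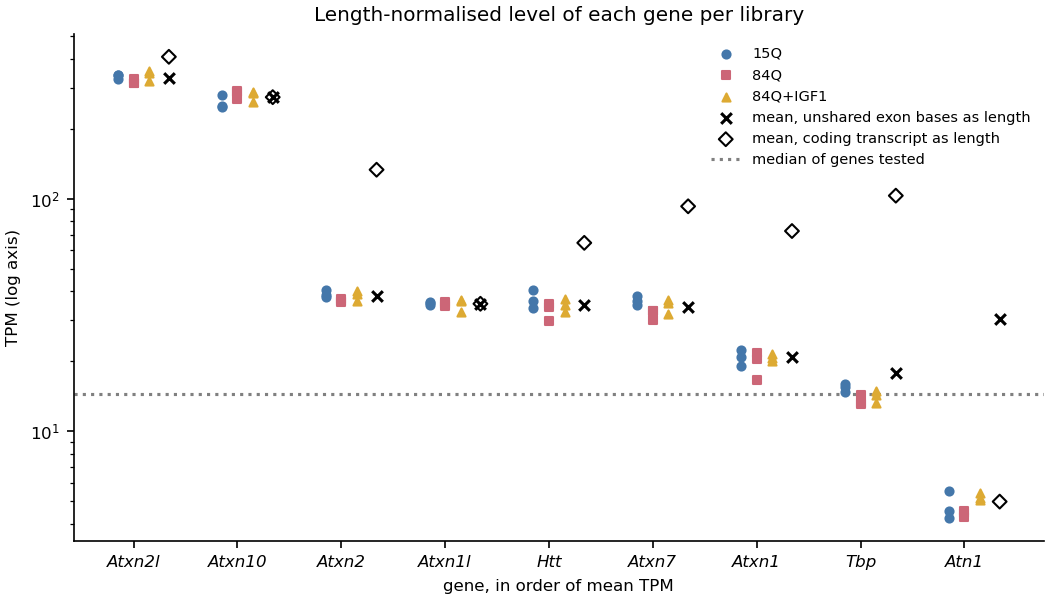
Length-normalised level of each gene on a log axis of TPM, in order of the mean, with 1 point per library coloured by group, the mean under 2 other lengths as a cross and a diamond, and the median of the genes tested as a dotted line. Atxn2l and Atxn10 sit at 248 TPM or more in every library, the groups of each gene lie close together, and the cross of Atn1 at 30.4 TPM stands far above its points.

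Most of the levels varied little between mice, beside all genes tested and without matching for count level. The pooled SD of log2 CPM within groups was 0.04 for Atxn2, with a smaller value in only 2.08% of the genes tested, and 0.05 for Atxn1l, with a median of 0.15 over all genes. Tbp, Atxn2l and Atxn7 had 0.06, Atxn10 had 0.09 and Htt 0.10. Atn1 and Atxn1 were the most variable at 0.13, close to the median gene. By the coefficient of variation that edgeR estimates between mice, Atn1 stood at 11.5%, above the median of 10.7% over all genes. The other members had 5.27% to 8.05%. For Atn1 the counts were also few, at 89 to 297 per library, against 809 to 23244 for the other genes.

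Whether the expanded repeat in ataxin-3 came with a change in these genes was first asked of 84Q against 15Q. These groups also differ in the source of the line, which cannot be told apart from the repeat. None of the 9 genes was called, where 2.14% of the 19353 genes tested were (edgeR quasi-likelihood test, Benjamini-Hochberg adjusted p under 0.1 and at least 1.5-fold). The largest differences were an Atxn10 level 0.17 higher and Atxn7 and Tbp levels 0.14 lower in 84Q on the log2 scale. The whole set of 95% intervals stayed within 1.27-fold in either direction, which is inside the 1.5-fold threshold. The members' median log2 fold change was -0.05, beside 0.00 over all genes, with 7 of 9 genes below zero, where 50.3% of all genes were.

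Ataxin-10 RNA was at 134, 119 and 118 CPM in the 15Q libraries, at 142, 132 and 145 in those of 84Q and at 142, 126 and 138 in those of 84Q+IGF1. The first 15Q library exceeded 1 of the 84Q libraries, so the groups overlapped. The log2 fold change was 0.17 (SE 0.07, edgeR adjusted p = 0.186), with a 95% interval from 0.03 to 0.32. Without the first 15Q library it was 0.24 with an adjusted p of 0.0868, still below 1.5-fold, and over its 17 alternatives the adjusted p ran from 0.0868 to 0.462.

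Atxn7, whose protein anchors the deubiquitinase module to SAGA, was at 71.8, 69.3 and 73.8 CPM in 15Q, at 66.4, 66.9 and 61.6 in 84Q and at 65.2, 72.7 and 69.9 in 84Q+IGF1. All 3 of the 84Q values lay below all 3 of 15Q, while the 84Q+IGF1 values spanned both groups. The log2 fold change of 84Q against 15Q was -0.14 (SE 0.06, edgeR adjusted p = 0.201). Tbp, the factor that positions RNA polymerases at promoters, was at 49.7, 52.3 and 52.9 CPM in 15Q, at 45.2, 49.3 and 46.1 in 84Q and at 46.0, 50.2 and 47.8 in 84Q+IGF1. Here too the 84Q libraries lay below those of 15Q, by a margin of less than 1 CPM. Its log2 fold change was -0.14 (SE 0.06, edgeR adjusted p = 0.229). Groups that did not overlap were found for 2 of 9 genes, Atxn7 and Tbp, which is close to the 25.4% of all genes tested for which this held. An unadjusted p under 0.05 was reached by 3 of 9 genes, Atxn10, Atxn7 and Tbp, and by 19.4% of all genes.

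Huntingtin RNA overlapped between groups, at 221, 205 and 241 CPM in 15Q, at 212, 220 and 188 in 84Q and at 204, 224 and 209 in 84Q+IGF1. The third 15Q library was the highest and the third 84Q library the lowest of the 9. Its log2 fold change was -0.11 (SE 0.08, edgeR adjusted p = 0.485). Atxn1 was at 65.9, 71.9 and 75.7 CPM in 15Q, at 71.96, 76.9 and 59.4 in 84Q and at 77.0, 71.3 and 68.8 in 84Q+IGF1. The third 84Q library was again the lowest, and the group means of 71.2 ± 4.90, 69.4 ± 9.03 and 72.4 ± 4.21 (SD, n = 3) differed by less than the SDs. Its paralog Atxn1l stayed between 62.8 and 69.1 CPM in all libraries, Atxn2 between 143 and 158, and Atxn2l between 376 and 427. The log2 fold changes of Atxn1, Atxn1l, Atxn2, Atxn2l and Atn1 ranged from -0.06 to 0.04, with edgeR adjusted p values from 0.644 to 0.868. In bulk tissue, fewer cells of a type and less RNA per cell cannot be told apart.

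**Figure D2:**
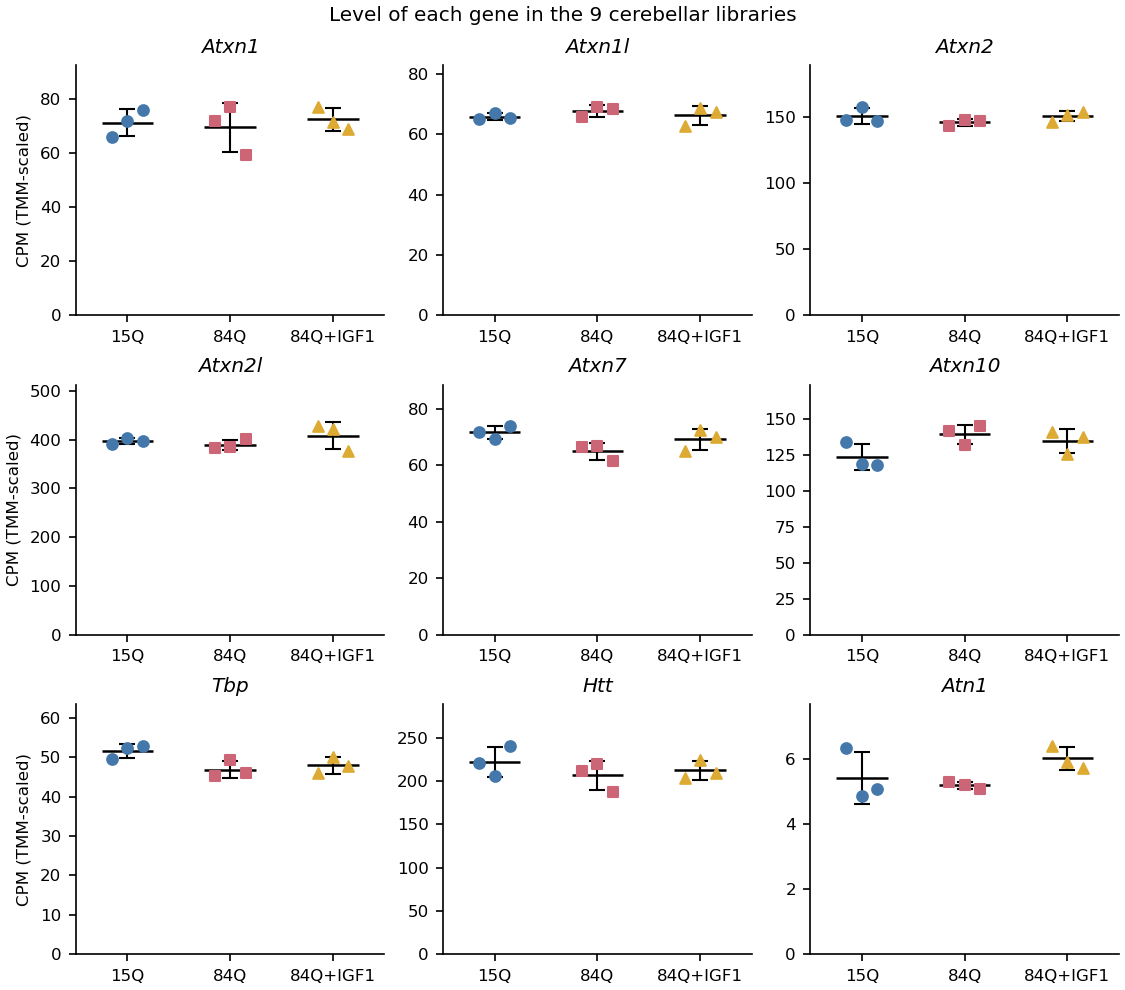
CPM of each gene (vertical axes from 0, scaled per gene) in the 15Q, 84Q and 84Q+IGF1 groups, with 1 point per library, the group mean as a line and the SD as a bar (n = 3). The 84Q points of Atxn7 and Tbp lie just below those of 15Q, the Atxn10 points of 84Q lie mostly above, and no gene differs by as much as 1.5-fold between groups.

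Mice given IGF-1 were next compared with 15Q. None of the 9 genes was called, against 2.25% of all genes, and no gene had groups that did not overlap, against 24.7%. Atn1 had the largest log2 fold change at 0.16 (SE 0.13, edgeR adjusted p = 0.564), followed by Atxn10 at 0.13 (SE 0.07, edgeR adjusted p = 0.352). Tbp was at -0.11 (SE 0.06, edgeR adjusted p = 0.382), Htt at -0.07 and Atxn7 at -0.05. Without the first 84Q+IGF1 library the value of Atxn7 was -0.0054, and without the second it was -0.0801. The remaining genes lay between 0.00 and 0.04. No gene reached an unadjusted p under 0.05, where 17.7% of all genes did, and the widest interval extended to 1.36-fold, for Atn1. The comparison shares its 15Q libraries with the one above, so the positions of Atxn10 and Tbp in both are not independent.

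The treatment itself was tested by 84Q+IGF1 against 84Q. No member and 0 of all 19353 genes were called, so the background here was 0% with edgeR, while DESeq2 called 6 of 37794 genes and no member. An unadjusted p under 0.05 was reached by 0 members and by 4.68% of all genes. Atn1 had the largest difference, with 5.28, 5.19 and 5.07 CPM in 84Q and 6.39, 5.91 and 5.72 in 84Q+IGF1, and 6.32, 4.84 and 5.08 in 15Q. It was the 1 gene of 9 whose groups did not overlap, beside 8.46% of all genes, and the first 15Q library was as high as the treated ones. Its log2 fold change was 0.21 (SE 0.13, edgeR adjusted p = 0.969), with an interval from -0.08 to 0.51. The log2 fold changes of Atxn7 and Atxn2l were 0.09 and 0.07, and both depended on single libraries: Atxn7 ranged from 0.0548 without the second 84Q+IGF1 library to 0.133 without the first, and Atxn2l from 0.0358 without the first to 0.126 without the third. Those of the other 6 genes lay between -0.05 and 0.06. The intervals allow a treatment effect of up to 1.42-fold for Atn1 and up to 1.19-fold for each of the other genes.

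With the 6 libraries of both 84Q groups set against the 3 of 15Q, the precision was highest and again 0 of 9 genes were called, beside 3.51% of all genes. No gene had groups that did not overlap, beside 12.3% of all genes. Atxn10 was higher by 0.15 on the log2 scale (SE 0.06, edgeR adjusted p = 0.157) and Tbp lower, at -0.12 (SE 0.05, edgeR adjusted p = 0.187). These were the 2 genes with an unadjusted p under 0.05, which 22.6% of all genes reached. Over the alternatives, the edgeR adjusted p of Atxn10 ran from 0.0715 to 0.457, with 0.0715 without the first 15Q library and 0.0998 and 0.0992 without the second library of 84Q or of 84Q+IGF1, each time with a fold change under 1.5. Atxn7 was at -0.09, Htt at -0.09 and Atn1 at 0.05, and Atxn1, Atxn1l, Atxn2 and Atxn2l lay between -0.02 and 0.02. All 9 intervals stayed within 1.23-fold.

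**Figure D3:**
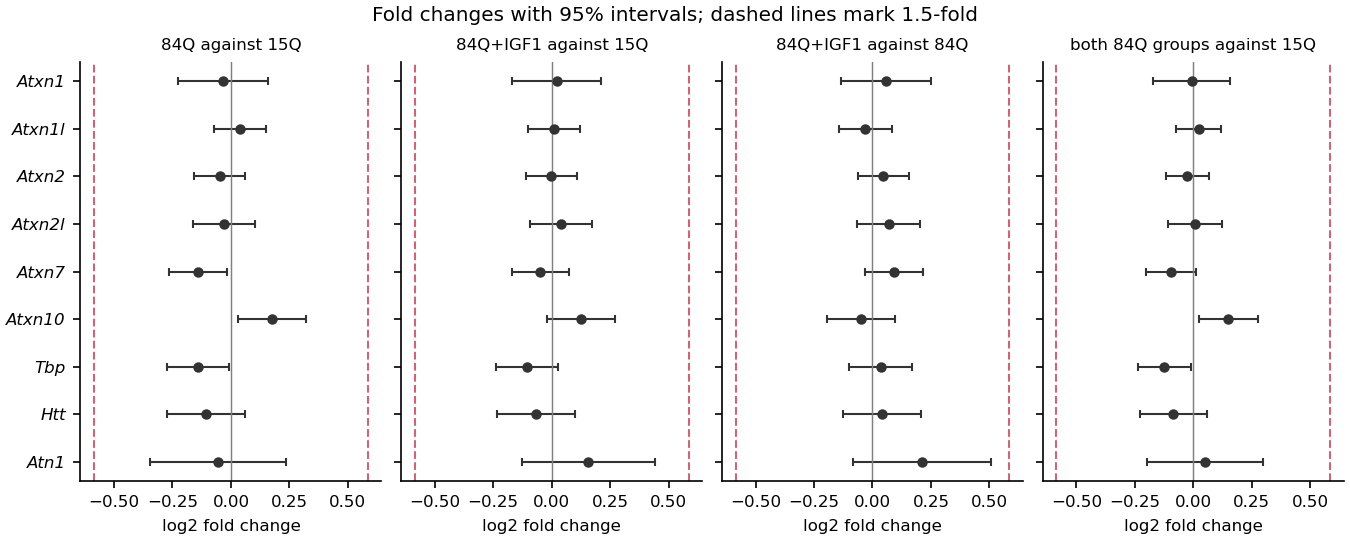
Log2 fold change of each gene in the 4 comparisons (edgeR), with 95% intervals as bars and dashed lines at 1.5-fold. Every interval lies inside the dashed lines, and in 84Q against 15Q those of Atxn7, Atxn10 and Tbp exclude 0.

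Because ataxin-1 and ataxin-2 share partners with their paralogs, the balance within each pair was also examined as the log2 ratio of counts, a measure that needs no library scaling. Atxn1 and Atxn1l had nearly equal counts, with a mean log2 ratio of 0.09 ± 0.14 (SD, n = 9). Per length the direction depended on the length used: the ratio of mean TPM of Atxn1 to Atxn1l was 0.576 with exon unions, 0.759 with the longest transcript and 2.06 with the transcript of the longest coding sequence. The ratio was 0.02, 0.10 and 0.21 in 15Q, 0.13, 0.15 and -0.21 in 84Q and 0.29, 0.06 and 0.03 in 84Q+IGF1. The third 84Q library was the only one in which Atxn1l had more counts than Atxn1. Atxn2 had 0.375 of the counts of Atxn2l on average. Its mean TPM was lower than that of Atxn2l under each of these lengths, at a ratio of 0.114, 0.217 and 0.327 in the same order. Its log2 ratio was -1.40, -1.35 and -1.43 in 15Q, -1.42, -1.38 and -1.45 in 84Q and -1.54, -1.48 and -1.29 in 84Q+IGF1. In both pairs the group means differed by less than the SD of either group. Over the 2 pairs and 4 comparisons, exact permutation tests (two-sided) gave p values from 0.6 to 0.8 and 0.8 after Benjamini-Hochberg adjustment over the 8 tests. With 3 libraries against 3 the smallest possible p is 0.1, and with 6 against 3 it is 0.0119. The largest difference between group means was 0.10, for Atxn1 to Atxn1l in 84Q+IGF1 against 84Q.

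**Figure D4:**
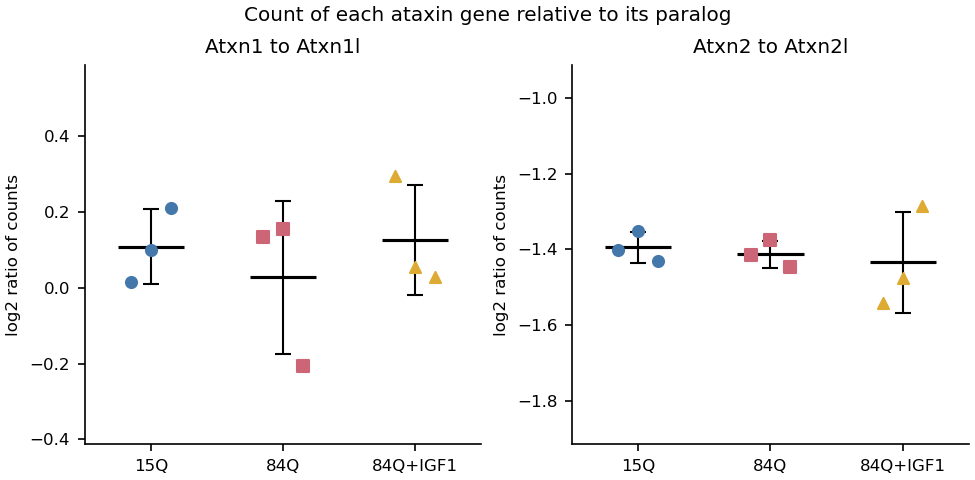
Log2 ratio of counts of Atxn1 to Atxn1l (left) and of Atxn2 to Atxn2l (right) in each library by group, with the group mean as a line and the SD as a bar (n = 3). Both vertical axes span 1 log2 unit, and the groups overlap in both panels.

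As a description of how the genes varied together, the gene whose log2 CPM followed each member most closely over the 9 libraries was found among the 19353 genes. Atxn7 was followed by Rsbn1 (Pearson r = 0.98), Htt by Vps13b (0.98), Atxn2l by Clip3 (0.98), Atxn10 by Traf2 (0.98), Tbp by Chmp4c (0.98) and Atxn2 by Ccdc6 (0.95). Atxn1 was followed by the lincRNA Gm11110 (0.96), Atxn1l by the lincRNA 4933406C10Rik (0.97) and Atn1 by Pigv (0.90). Among the members themselves, Atxn7 and Htt were the closest pair (r = 0.86), and only 0.703% of all genes followed Htt more closely than Atxn7 did. Neither paralog was the member most like its partner, since Atxn1 was closest to Htt (r = 0.57) and Atxn2 to Tbp (r = 0.55). These are the highest of many correlations over 9 libraries that share group, depth and tissue make-up, and no p is given.

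Around the 9 genes, 122 partner genes in 10 lists were counted, and 119 of them were tested. With edgeR, 0 were called in each of the 4 comparisons, where the background was 2.14%, 2.25%, 0% and 3.51%. An unadjusted p under 0.05 was reached by 26, 24, 2 and 31 partner genes (21.8%, 20.2%, 1.68% and 26.1%). Of all genes, 19.4%, 17.7%, 4.68% and 22.6% reached it. The DESeq2 Wald test called 1 in 84Q against 15Q, F8a (log2 fold change 0.59, adjusted p = 0.0131), beside 521 of 23864 genes in all. In both 84Q groups against 15Q it called 1, Dusp4 (0.60, adjusted p = 0.0550), beside 786 of 25330 genes in all. It called 0 partner genes in the other 2 comparisons. F8a and Dusp4 were named after their values were seen. By the adjusted p alone, without the 1.5-fold threshold, 8 partner genes (6.72%) passed in 84Q against 15Q, beside 4.8% of all genes, and 3 (2.52%) in 84Q+IGF1 against 15Q, beside 3.67%. In 84Q+IGF1 against 84Q there were 0, as among all genes. In both 84Q groups against 15Q there were 14 (11.8%), 5 higher and 9 lower, beside 9.75% of all genes. These shares were close to the background. Of the 14, only 2 had an adjusted p under 0.1 in all 9 fits that left out 1 library, Gnb2 and Fgf14, and the others all lost it without the third 15Q library. The microglia, intestine and muscle markers above also separated 84Q from 15Q, and their part in these values was not tested. The values below are of both 84Q groups against 15Q unless stated.

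Among further polyglutamine disease genes, Cacna1a and Atxn3 were not called. Cacna1a, the calcium channel gene of spinocerebellar ataxia type 6 and a main channel of Purkinje cells, was at 932 ± 43.6, 914 ± 111 and 960 ± 52.7 CPM (SD, n = 3) in 15Q, 84Q and 84Q+IGF1, with a log2 fold change of 0.01 (SE 0.07). Mouse Atxn3 was at 29.1 ± 1.08, 27.0 ± 1.82 and 27.0 ± 1.31 CPM, with -0.11 (SE 0.07, edgeR adjusted p = 0.364), and these mouse counts do not check the human transgene. Among 12 genes of other repeat expansion diseases the median log2 fold change was 0.07. Fgf14, an ataxia gene whose protein binds sodium channels, was at 72.8 ± 3.83 CPM in 15Q, at 49.8 ± 7.11 in 84Q and at 59.1 ± 6.83 in 84Q+IGF1. It was lower, at -0.42 (SE 0.09, edgeR adjusted p = 0.0218) and at -0.55 (SE 0.10, edgeR adjusted p = 0.0208) in 84Q alone. Cnbp, a nucleic acid-binding protein gene whose intronic repeat causes a myotonic dystrophy, was the most abundant of the list and higher by 0.26 (SE 0.05, edgeR adjusted p = 0.0267).

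Ataxin-1 and capicua partners (10 of 11 tested) had a median log2 fold change of 0.02. Ywhae, the 14-3-3 protein gene that was their most abundant, stood at 0.09 (SE 0.05, edgeR adjusted p = 0.350), and Rora, a nuclear receptor needed by Purkinje cells, was lower, at -0.30 (SE 0.07, edgeR adjusted p = 0.0362). Among the 8 genes known as targets of capicua repression the median was 0.18, beside -0.01 over all genes. The transcription factor gene Etv1, at 607 to 679 CPM per group, was at -0.10 (SE 0.08), and Etv5 was higher by 0.26 (SE 0.06, edgeR adjusted p = 0.0474). Etv5 was at 74.5 ± 8.55 CPM in 15Q, at 81.6 ± 0.602 in 84Q and at 97.4 ± 5.02 in 84Q+IGF1, and in 84Q+IGF1 against 15Q its log2 fold change was 0.39 (SE 0.07, edgeR adjusted p = 0.0203). Against 84Q it was 0.26 (SE 0.07, edgeR adjusted p = 0.969).

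The 12 ataxin-2 and stress granule partners had a median of -0.02. Tardbp, the gene of the RNA-binding protein TDP-43, was at 0.00 (SE 0.05), and Pabpc1, whose poly(A)-binding protein is a direct partner of ataxin-2, was lower, at -0.21 (SE 0.05, edgeR adjusted p = 0.0442). SAGA subunits (20 of 21 tested) had a median of 0.02. Usp22, the deubiquitinase of the module that ataxin-7 holds, was at -0.01 (SE 0.05), and its adaptor Atxn7l3 at 0.14 (SE 0.05, edgeR adjusted p = 0.161). The TFIID subunits and TBP-related factors (22 of 23 tested, 2 of them also in SAGA) had a median of 0.02, with Drap1 at 0.07 (SE 0.06) and Taf3, a core TFIID subunit, at -0.18 (SE 0.06, edgeR adjusted p = 0.116).

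The 17 huntingtin partners had a median of -0.01. Dctn1, the large subunit of dynactin, was at 0.07 (SE 0.05, edgeR adjusted p = 0.440). F8a, the gene of the huntingtin-associated protein HAP40, came closest to an edgeR call in 84Q against 15Q, with mean CPM of 8.01 ± 1.18, 11.9 ± 2.06 and 11.3 ± 1.27 (15Q, 84Q and 84Q+IGF1, in that order) and a difference of 0.58 on the log2 scale (SE 0.15, edgeR adjusted p = 0.0779) in 84Q against 15Q. Atrophin-1 partners (11 of 12 tested) had a median of 0.02. Baiap2, a synaptic scaffold gene, was at 0.11 (SE 0.07), and Rere, the paralog of atrophin-1, at -0.16 (SE 0.05, edgeR adjusted p = 0.0939). The 6 ataxin-10 partners had a median of -0.05, with Ogt, the X-linked O-GlcNAc transferase gene, at -0.12 (SE 0.07) and Gnb2, a G protein beta subunit gene, higher by 0.31 (SE 0.06, edgeR adjusted p = 0.0112). Gnb2 was at 81.4 ± 2.02 CPM in 15Q, at 103 ± 10.2 in 84Q and at 99.5 ± 2.28 in 84Q+IGF1, and the 6 libraries of both 84Q groups all lay above the 3 of 15Q. Of the genes that overlap a member, Gmpr, at the Atxn1 locus, was at 0.33 (SE 0.07, edgeR adjusted p = 0.0266) and Sh2b3, at the Atxn2 locus, at 0.21 (SE 0.08, edgeR adjusted p = 0.142).

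**Figure D5:**
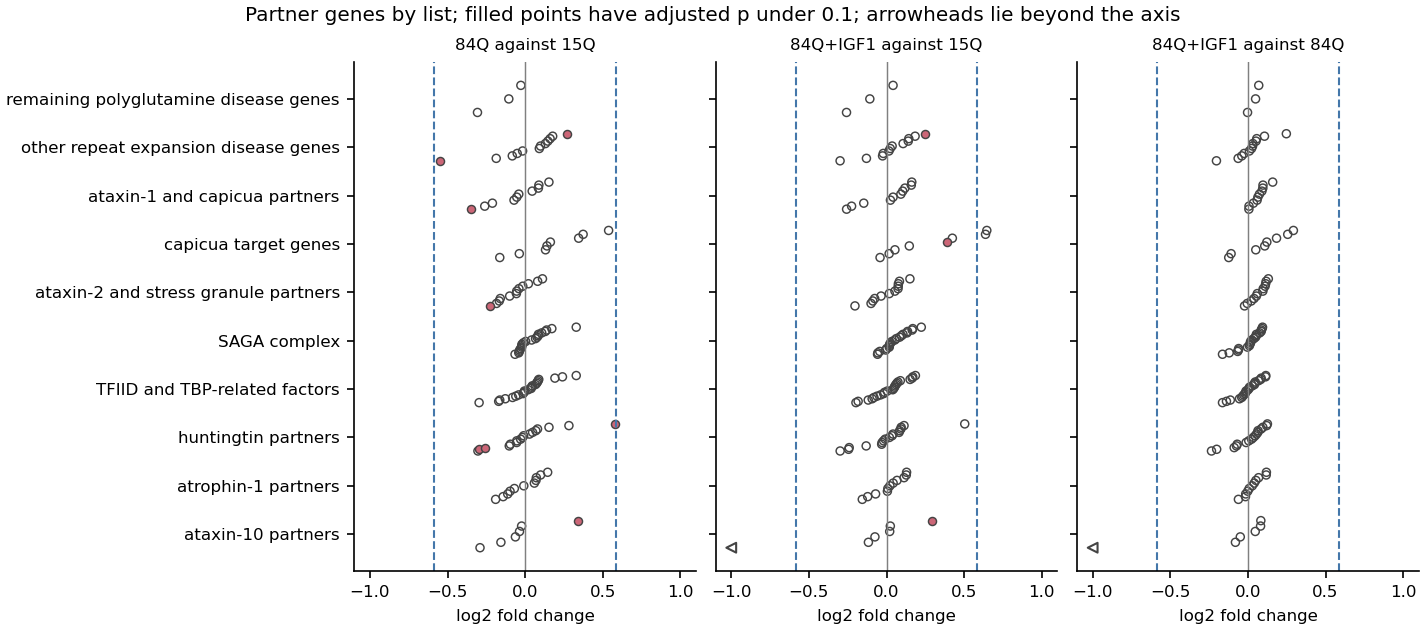
Log2 fold change of each tested partner gene by list in 3 comparisons (edgeR), filled where the adjusted p was under 0.1, with dashed lines at 1.5-fold. Filled points number 8, 3 and 0 from left to right and lie inside the dashed lines, and 2 genes stand in both the SAGA and TFIID lists. The arrowheads in the middle and right panels are Aurkb, a low-count gene.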

How the data were processed

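Cerebellar RNA of 9 mice was measured by strand-specific, paired-end RNA sequencing, with 3 libraries per group. The authors trimmed reads with Trimmomatic 0.36, aligned them with HISAT2 2.2.0 to GRCm38.p6 and counted them per gene with featureCounts, and the deposited values, used without change, are raw counts. The annotation and strand setting of the counting are not given in the sources used here.

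Counts were tested with edgeR 4.0.16 in R 4.3.3, with TMM scaling, filterByExpr, a single quasi-likelihood fit of the 9 libraries, and p-values adjusted by Benjamini-Hochberg over 19353 genes that passed the filter. Calls required an adjusted p under 0.1 and at least 1.5-fold, after thresholds in the study's methods, and DESeq2 1.42.0 was an alternative. SEs were derived from the F statistic, and tests are two-sided. The fit was tested on simulated data. Log2 CPM used a prior count of 2. Library depth sets the precision, and counts at or under 3 were treated as a floor. TPM used exon unions of GENCODE vM21, where 37681 genes had a length. Sequences were read from the same annotation. Groups and replicate numbers came from the labels. The p-values measure the spread between these mice. The members and lists were chosen with earlier results of these data known. Named partners were, per list, the gene with the highest mean TPM, the one with the smallest unadjusted p in both 84Q groups against 15Q, and any called, and exceptions are stated where they stand. Some genes that this rule names are not reported here. Alternatives were another test, scaling, filter and threshold, covariates, a replicate block and fits without each library.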

Additional observations from a re-analysis of the deposited data

How the results depend on the processing

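The count of members called was 0 in each of the 71 alternatives over the 4 comparisons, including the DESeq2 Wald test. The fold changes of members turned sign in 39 of 603 recomputations, in 15 of 36 results, each with values near 0. For both 84Q groups against 15Q, Atxn1 went from -0.01 to 0.00304 with the DESeq2 Wald test, 0.00293 with DESeq2 size factors, 0.0269 with Xist and 0.0422 with Ttr as a covariate. For 84Q+IGF1 against 15Q, Atxn2 went from 0.00 to 0.00855 with the DESeq2 Wald test, 0.00836 with DESeq2 size factors and 0.00357 with only the libraries compared. With Ttr as a covariate, Atxn2l went to -0.00392 in 84Q+IGF1 against 15Q and to -0.0270 in both 84Q groups against 15Q, and Htt to 0.0270 in 84Q+IGF1 against 15Q. The cause was not tested.

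Leaving out 1 library in turn, the log2 fold change of Atxn1 ranged from -0.108 to 0.0649 in 84Q against 15Q, from -0.0228 to 0.0752 in 84Q+IGF1 against 15Q, from -0.0401 to 0.137 in 84Q+IGF1 against 84Q and from -0.0515 to 0.0465 in both 84Q groups against 15Q. Atxn1l ranged from -0.0128 to 0.0484 in 84Q+IGF1 against 15Q and from -0.0582 to 0.00688 against 84Q. Atxn2 ranged from -0.0160 to 0.0351 in 84Q+IGF1 against 15Q and from -0.0370 to 0.0118 in both 84Q groups against 15Q, where Atxn2l ranged from -0.00907 to 0.0352 and Atn1 from -0.0183 to 0.174. Atn1 ranged from -0.124 to 0.0674 in 84Q against 15Q, Htt from -0.116 to 0.00130 in 84Q+IGF1 against 15Q and from -0.0228 to 0.0881 against 84Q, and Tbp from -0.000526 to 0.0748 in 84Q+IGF1 against 84Q. Of the 22 member fold changes that did not change sign without 1 library, 14 moved by over 1.5 times. In 84Q against 15Q these were Atxn1l (0.0296 to 0.0644), Atxn2 (-0.0603 to -0.0116), Atxn2l (-0.0488 to -0.0148) and Htt (-0.156 to -0.0389). In 84Q+IGF1 against 15Q they were Atxn2l (0.00883 to 0.0979), Atxn7 (-0.0801 to -0.00539), Atxn10 (0.0931 to 0.193) and Atn1 (0.0878 to 0.280). In 84Q+IGF1 against 84Q they were Atxn2 (0.0303 to 0.0657), Atxn2l (0.0358 to 0.126), Atxn7 (0.0548 to 0.133) and Atxn10 (-0.0854 to -0.00187), and in both 84Q groups against 15Q they were Atxn1l (0.0163 to 0.0450) and Htt (-0.136 to -0.0188). The difference in the log2 ratio of Atxn1 to Atxn1l ranged from -0.145 to 0.0352 in 84Q against 15Q, from -0.0667 to 0.0688 in 84Q+IGF1 against 15Q, from -0.0179 to 0.162 in 84Q+IGF1 against 84Q and from -0.0787 to 0.0245 in both 84Q groups against 15Q. That of Atxn2 to Atxn2l ranged from -0.0364 to 0.00370, from -0.114 to 0.0141 and from -0.0957 to 0.0319 in the first 3 of these.

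Partner genes called numbered 0, and without a fold threshold 8 in 84Q against 15Q, 3 in 84Q+IGF1 against 15Q and 14 in both 84Q groups against 15Q. In 84Q against 15Q the DESeq2 Wald test called 1 and DESeq2 size factors 1, both F8a, beside 521 of 23864 and 418 of 19353 genes in all. In both 84Q groups against 15Q the DESeq2 Wald test called 1 and the fit with no filter on low counts 1, both Dusp4. Of all genes these called 786 of 25330 and 1568 of 37816. With no filter 3 were called in 84Q+IGF1 against 15Q, Aurkb, Spry4 and Dusp4, beside 1284 of 37816 genes in all. Leaving out 1 library gave 0 to 1, 0 to 2 and 0 to 2 in these 3 comparisons. F8a was called without the first 15Q library in all 3 and, as Dusp4 was, without the first 84Q or the third 84Q+IGF1 library, and Fgf14 without the second 84Q library. Partner genes outside the naming rule (F8a, Dusp4, Spry4, Aurkb) were named after their values were seen.

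With the replicate number as a block, 0 members and 0 partner genes were called in each comparison, and no member fold change or paralog ratio changed sign or passed its threshold. The block lowered other counts, in comparisons chosen after seeing the data. By the adjusted p alone, partner genes went from 8 to 3 in 84Q against 15Q, from 3 to 2 in 84Q+IGF1 against 15Q and from 14 to 7 in both 84Q groups against 15Q, and all genes from 928 to 354, from 711 to 325 and from 1886 to 873. All genes called went from 414 to 242, from 435 to 271 and from 680 to 455. In 84Q+IGF1 against 84Q each of these stood at 0 in both fits. Other settings also moved the number of all genes called by over 1.5 times: with no filter on low counts it was 1025, 1284, 168 and 1568 in the 4 comparisons, with the DESeq2 Wald test 6 in 84Q+IGF1 against 84Q, with Xist as a covariate 274 in 84Q and 450 in both 84Q groups against 15Q, and with Ttr 257 in 84Q+IGF1 and 381 in both 84Q groups against 15Q. At an adjusted p under 0.05 it was 243, 281, 0 and 429, and without 1 library 184 to 551, 226 to 629, 0 to 9 and 275 to 889, lowest without the second or the third 15Q library in the 3 comparisons with 15Q. Deviations of same-numbered libraries correlated between -0.309 and 0.0788, and 1 of 9 correlated best with its own number. With 3 libraries per group this check cannot exclude that some mice were paired. Some 84Q and 84Q+IGF1 libraries share a prefix in the sample name, and its meaning is not given in the sources used here. The depth limits Atn1 most, with as few as 89 counts in a library.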
